A study of Mus musculus with 2 samples.

Results

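The cells described here were blood endothelial cells of the mesentery that carried venous markers and few UMIs of Prox1, the homeobox factor that sets lymphatic identity. They were chosen by raw UMIs (unique molecular identifiers, each of which stands for 1 captured RNA molecule). A barcode had to hold at least 2000 UMIs with at most 10% mitochondrial ones, at least 2 UMIs of Cdh5, at least 5 of Vwf and at least 1 of Aplnr. It could hold at most 2 UMIs of the cell cycle genes Mki67 and Top2a together, at most 1 of Prox1, at most 1 of the arterial genes Gja5 and Sema3g, under 10 of Glycam1, and at most 2 of the capillary genes Gpihbp1, Esm1 and Col13a1. Of 11273 barcodes, 141 met these limits, 59 of them control cells and 82 Flcn iΔEC cells.

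Single-cell RNA-seq had been made from CD31+ mesenteric cells, isolated on beads, of C57BL/6 mice at postnatal day 8. One library came from control mice and one from mice in which a Cdh5-BAC-CreERT2 transgene, active in endothelial cells, deleted floxed Flcn. The labels of both libraries give injections of 40 µg of 4-hydroxytamoxifen. Each library held the pooled cells of 3 mice, and the labels do not give the genotype of the controls. With 1 library per genotype no test between genotypes was possible, cells were not used as replicates, and all intervals are 95% intervals that cover counting error only. The libraries also differed in sex-linked RNA, since Xist was counted only in the Flcn iΔEC venous cells and the Y-linked genes Ddx3y and Eif2s3y only in the control ones, so that genotype and sex cannot be told apart.

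Veins and venules return blood at low pressure, and their endothelium is where leukocytes leave the circulation. The nuclear receptor Nr2f2 maintains venous identity and restrains Notch signalling, which specifies arteries, and lymphatic vessels arise from venous endothelium when Prox1 is switched on. Folliculin, the product of Flcn, works with Fnip1 or Fnip2 at the lysosome surface on Rag GTPases, and in doing so keeps the transcription factors Tfeb and Tfe3, which drive lysosomal genes, out of the nucleus.

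The venous cells made up 10.7% of the 549 endothelial cells of the control library (exact binomial interval 8.28% to 13.6%) and 9.38% of the 874 of the Flcn iΔEC library (7.53% to 11.5%), and the intervals overlapped. They were deeply covered. The median was 17687 UMIs and 4603 genes per control cell and 19339.5 UMIs and 4847.5 genes per Flcn iΔEC cell, and the summed counts were 1343802 and 1892190. Mitochondrial genes took 3.16% and 3.46% of them, and ribosomal protein genes 18.3% and 20.5%. The libraries shared 6 barcodes, none of them a venous cell. Limits on raw UMIs bind shallow and deep cells unequally, and 15 control and 23 Flcn iΔEC venous cells stood at the limit of 1 Prox1 UMI. A single Aplnr UMI was held by 3 and 16 venous cells, and 4 and 15 others failed only for having none. Just 1 Flcn iΔEC venous cell stood at 5 Vwf UMIs, and 1 cell in each library was left out at 4. Cells that failed only through Prox1 numbered 25 and 42, and those with just 2 Prox1 UMIs numbered 15 and 12, with 371 and 314 CPM of Nr2f2 against 460 and 284 CPM in the cells with 1. CPM are UMIs of a gene summed over cells, per 1000000 UMIs of those cells.

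Not all UMIs of these cells were endothelial. Ptprc, the pan-leukocyte phosphatase CD45, had a UMI in 25 of 59 control cells (42.4%, 29.6% to 55.9%) and in 26 of 82 Flcn iΔEC cells (31.7%, 21.9% to 42.9%). The share was 19.4% in control arterial and 18.6% in control lymphatic cells, whose median depths were 14731.5 and 16255 UMIs. After thinning every cell to 2000 UMIs the venous shares were 11.2% and 6.03%, against 3.65% and 1.80% in arterial, 7.87% and 5.92% in capillary and 74.7% and 68.1% in blood cells. Venous cells with 2 or more Ptprc UMIs, 19 control and 21 Flcn iΔEC cells, were deeper, with a median of 28752 and 25244 UMIs against 14349.5 and 15824 in cells without one. They held less Vwf, 1468 and 1054 CPM against 3195 and 1532 CPM. Summed over 6 T cell genes, no venous cell reached the median blood cell (3435 and 2280 CPM), the highest ones having 2551 and 1545 CPM. Scrublet's automatic cut, at a score of 0.242 for control and 0.518 for Flcn iΔEC barcodes, marked no venous cell but only 0.112% of the Flcn iΔEC barcodes, too few to work as a filter, and at a score of 0.25 it marked 1 Flcn iΔEC venous cell. The source of these UMIs was not tested. Results are given with and without the 25 and 26 cells wherever leaving them out took a named gene under 2-fold or under 10 UMIs. Some genes moved past 2-fold instead, among them Vwf, whose log2 ratio of Flcn iΔEC over control went from -0.77 to -1.06.

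Apart from the T cell list, the marker lists of other cell types held little RNA. The 5 macrophage genes summed to 8.19 and 7.40 CPM, the 4 neutrophil genes to 1.49 and 2.64 CPM and the 5 B cell genes to 82.6 and 80.9 CPM, with the B cell UMIs led by 1 cell in each library. Of the mesothelial genes Msln, Upk3b, Lrrn4 and Wt1, none had a UMI. The 5 fibroblast genes summed to 131 and 13.2 CPM, with all of the control sum from Col3a1 and the other 4 at 0. The 6 mural genes summed to 132 and 35.9 CPM, mostly Tagln, with 3 and 1 of them at 0. Erythroid genes stood at 40.2 and 51.8 CPM and platelet genes at 23.1 and 7.40 CPM. The 6 T cell genes, the pan-leukocyte gene Ptprc among them, summed to 563 and 300 CPM, against 3171 and 2430 CPM in blood cells. Innate lymphoid and dendritic cells had no list, and which leukocytes the UMIs came from was not tested. Of 3 compared T cell genes, Trbc2 and Ptprc were lower in the Flcn iΔEC cells, with log2 ratios of -1.43 and -1.26. Without the cells with leukocyte UMIs, Trbc2 had 14 and 16 UMIs and a ratio of -0.86, and Ptprc, the gene that chose those cells, had none.

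Set against arterial cells, the venous label held on genes the limits did not use. Nr2f2 had 388 and 286 CPM in the control and Flcn iΔEC venous cells, against 8.26 and 4.57 CPM in arterial cells. Nrp2, a semaphorin and VEGF-C co-receptor of veins and lymphatics, had 208 and 159 CPM against 3.76 and 1.76 CPM in arterial cells. Lymphatic cells also held both, with 357 and 351 CPM of Nr2f2 and 380 and 213 CPM of Nrp2. Many capillary cells held Nr2f2 too, 48.2% and 70.9% of them against 98.3% and 95.1% of venous cells. Thinned to 2000 UMIs, these shares were 15.4% and 21.2% against 54.0% and 42.0%. Procr, the endothelial protein C receptor, had 747 CPM (interval 702 to 795) and 744 CPM (706 to 784), against 119 and 231 CPM in arterial and 51.0 and 82.7 CPM in capillary cells. Plvap, which forms the diaphragms of fenestrae and caveolae, was at 1165 and 1201 CPM, against 124 and 180 CPM in arterial cells. The venule chemokine receptor Ackr1 had a UMI in 33.9% of control and 36.6% of Flcn iΔEC cells and in none of the 72 and 115 arterial cells. For the arterial cells 3 cells would be 4.17% and 2.61%, and the exact upper limits were 4.99% and 3.16%, at median depths of 14731.5 and 18596 UMIs. In capillary cells the share was 3.57% and 5.45%. In blood cells it was 0.128% and 0.126%, at median depths of 7516 and 8264 UMIs. The levels of the genes used for selection are descriptions. Vwf, the clotting factor stored in endothelial granules, had 2407 and 1413 CPM, Aplnr, the apelin receptor, 421 and 277 CPM, and Prox1 11.2 and 12.2 CPM.

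**Figure D1:**
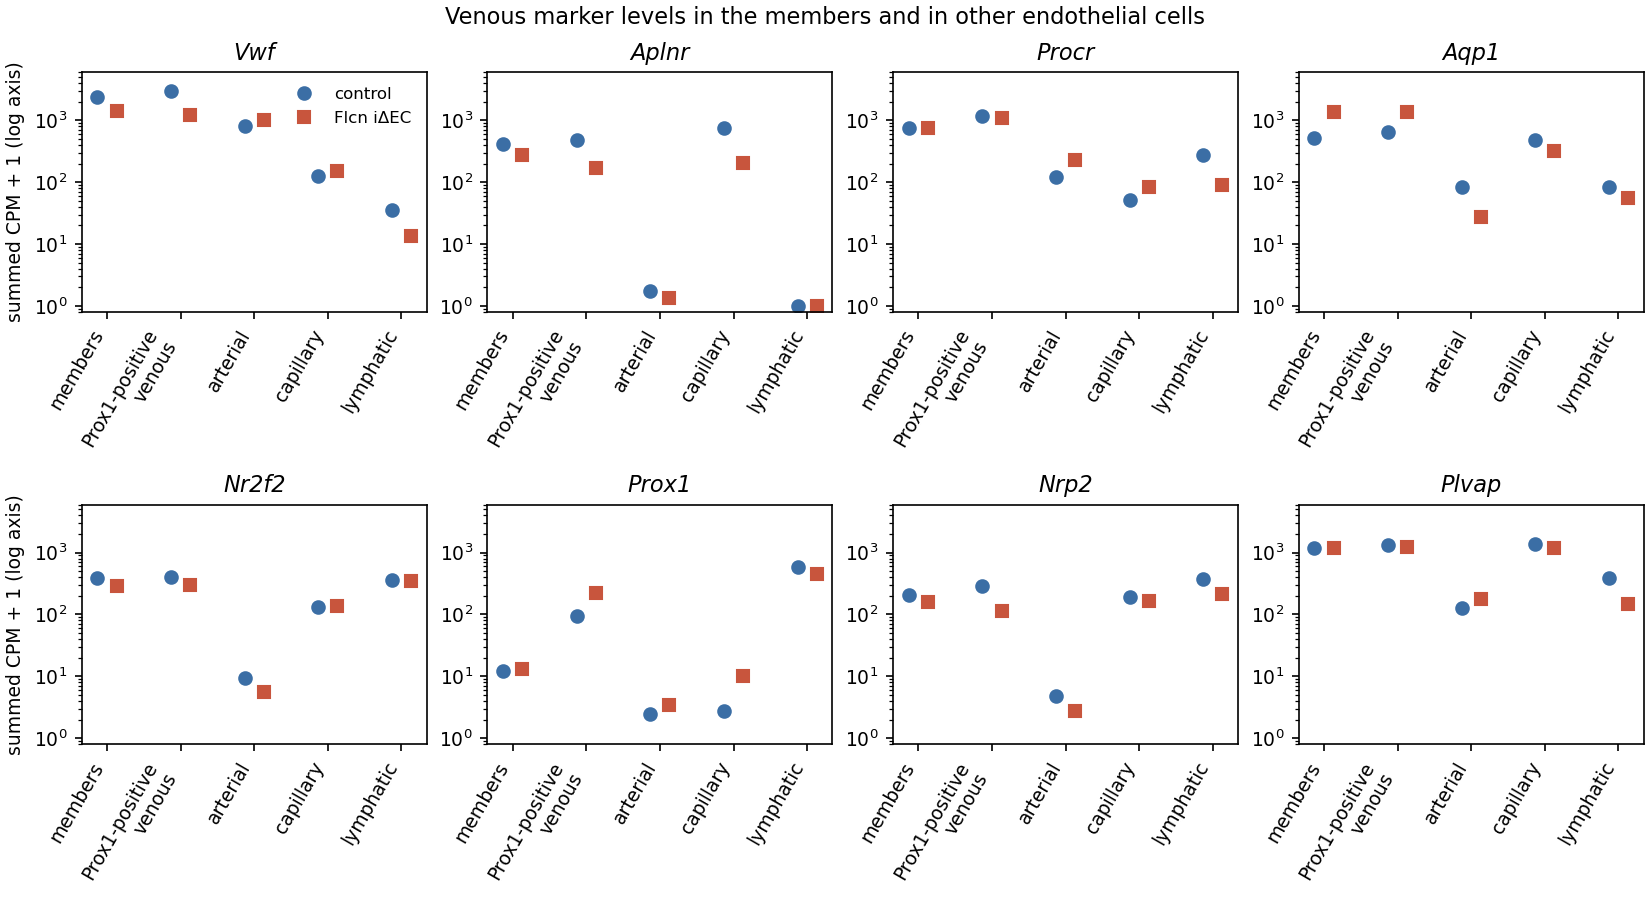
Summed CPM plus 1 on a log axis for 8 genes in 5 groups of endothelial cells, circles for the control and squares for the Flcn iΔEC library, each point the sum over 1 group of 1 library. Vwf, Aplnr and Prox1 were used to choose the cells, whereas Nr2f2 and Nrp2 stand between 159 and 388 CPM in the venous cells and under 10 CPM in arterial cells.

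Genes set these cells apart from the other endothelium in both libraries alike. Arterial, capillary and lymphatic cells were defined by raw UMIs of their own markers, and the genes of the venous limits were left out of the counts. At least 2-fold higher in venous than in arterial cells in both libraries were 257 of 6743 genes (3.81%), and at least 2-fold lower 249 (3.69%). Among the genes with the largest smaller ratio were Fam174b, Lbp, Nrp2, Nr2f2, Lhx6, Tgfbi, Meox1, Fxyd6 and Lrg1. Lbp, the lipopolysaccharide binding protein, had 243 and 405 CPM against 3.76 and 1.76 CPM, and Lrg1, a secreted glycoprotein of venules, 65.5 and 84.0 CPM against 2.25 and 3.52 CPM. On the arterial side, Gkn3 had 1 UMI in control venous cells and none in Flcn iΔEC ones, against 916 and 845 UMIs in arterial cells, and the Notch target Hey2 had none in either.

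Against capillary cells, 196 of 6734 genes (2.91%) were at least 2-fold higher and 155 (2.3%) lower. The leading genes were Meg3, Emp2, Adgrg6, Mgp, Eln, Bmp4, Lpcat2, Htra1, Tmem158 and Sulf1, among them elastin and matrix Gla protein, both parts of the wall of larger vessels. Eln had 13139 and 5675 CPM against 381 and 414 CPM in capillary cells, and Mgp 4009 and 4764 CPM against 61.1 and 342 CPM. Arterial cells held still more, 26660 and 27539 CPM of Eln and 10587 and 13818 CPM of Mgp. The basement membrane collagen Col4a1 was lower in the venous than in the capillary cells, at 277 and 93.5 CPM against 3350 and 1898 CPM.

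Lymphatic cells were the farthest, with 436 of 7176 genes (6.08%) at least 2-fold higher in the venous cells and 324 (4.52%) lower. Jam2, Rab27b, Adgrg6, Nkx2-3, Lhx6, AU021092, Gstm2, Nrp1 and Myof were among the leading genes. Jam2, a junctional adhesion molecule that leukocytes bind, had 287 and 333 UMIs in venous cells against 0 and 8 in lymphatic cells. Nkx2-3, a homeobox factor of gut vessels, had 187 and 207 CPM against 0 and 1.64 CPM. On the lower side, the T-box factor Tbx1 had 0 and 3 UMIs in venous cells against 232 and 1780 in lymphatic cells. Lyve1, Mmrn1, Pdpn and Ccl21a, also lower, had been used to choose the lymphatic cells. Without the cells that held leukocyte UMIs, the genes higher in venous cells numbered 130 against arterial, 165 against capillary and 261 against lymphatic cells.

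The cells most like them were the 25 and 42 that met every limit but Prox1. In the Flcn iΔEC library, 194 of 7432 genes (2.61%) were at least 2-fold higher in the venous cells with little Prox1 and 77 (1.04%) lower. These Prox1-positive cells were deeper, at a median of 24889 and 39594 UMIs. The genes on the higher side included those of MHC class II and of leukocytes. Some of the leading ones, Il22, Ccl5 and Cd69, were not higher in the control library, while others, such as Cd7, Tyrobp and Trbc2, were. Cd74, the class II invariant chain, had 1204 and 768 CPM against 217 and 197 CPM, and Il7r, the interleukin-7 receptor, 254 and 176 CPM against 98.4 and 63.0 CPM. Only 66 genes were higher once the cells with leukocyte UMIs had been left out. On the lower side, the tight junction gene Cldn11 had 41.7 and 59.2 CPM against 83.6 and 194 CPM. Lyve1 and Reln, which mark lymphatic capillaries, were under 10 CPM in both groups.

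Between the genotypes, 105 of 4992 genes with at least 100 summed UMIs (2.1%) were at least 2-fold higher in the Flcn iΔEC venous cells and 109 (2.18%) at least 2-fold lower. Ratios are log2 ratios of CPM with 1 UMI added to each sum, and the median over all 4992 genes was -0.03. The counts were 70 and 113 without the cells with leukocyte UMIs. The minimum of 100 UMIs then applied to 34 control and 56 Flcn iΔEC cells, and the number of genes that met it is not given. Flcn itself was thinly counted, with 15 UMIs in control and 24 in Flcn iΔEC cells (11.2 and 12.7 CPM), and reads at the 3′ end do not check a deletion elsewhere in the gene. The 15 genes with the largest ratios on each side, among those with at least 50 CPM in 1 library, are given by what they do.

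Apoe (chr7:19696109-19699188 on GRCm38, as all gene positions here), which carries cholesterol and is made by macrophages and hepatocytes, had 539 CPM (interval 500 to 579) over the control cells and 3048 CPM (2970 to 3127) over the Flcn iΔEC cells, 5.65-fold higher. Every Flcn iΔEC cell held it, from 82.8 to 9930 CPM with a median of 3034 CPM, and 55 of 82 lay above the highest control cell. Acer2, an alkaline ceramidase of the Golgi, had 65.5 and 284 CPM. Renbp, the renin-binding protein with N-acetylglucosamine epimerase activity, had 8.93 and 60.8 CPM, and Uap1l1, a relative of the enzyme that makes UDP-N-acetylglucosamine, 11.9 and 84.6 CPM. Apoe, Acer2, Renbp and Uap1l1 were also at least 2-fold higher in Flcn iΔEC capillary and lymphatic cells.

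Gpm6a (chr8:54954843-55060871), a membrane glycoprotein of neurons and lymphatic endothelium, had 12 UMIs in 10 control cells and 284 UMIs in 68 Flcn iΔEC cells, 8.93 against 150 CPM. Thinned to 2000 UMIs, 1.65% and 26.0% of venous cells held it, against 27.3% and 35.7% of lymphatic and 0.0201% and 0.182% of blood cells, the last with medians of 7516 and 8264 UMIs. The guanine deaminase gene Gda had 8.93 and 92.0 CPM, and the RNA-editing enzyme gene Adarb1 5.21 and 61.3 CPM. Cd24a, a sialic-acid bearing surface protein, had 48.4 and 333 CPM, and the giant scaffold gene Ahnak2 25.3 and 246 CPM. At full depth, more than 50% of the Flcn iΔEC cells but under 50% of the control cells had a UMI of each of these 5 genes. These shares depend on depth, and Gpm6a was in 49.8% and 4.02% of Flcn iΔEC and control cells when thinned to 5000 UMIs.

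Stress genes were next. Gdf15 (chr8:70629393-70632456), a secreted factor induced by the integrated stress response, had 17.1 and 224 CPM, held by 5 of 59 and 43 of 82 cells. Its log2 ratio of 3.65 stood beside 6.57 in arterial, 6.37 in capillary and 4.72 in blood cells. Thinned to 2000 UMIs, 2.06% of control and 24.4% of Flcn iΔEC venous cells held Gdf15, against 3.52% and 66.7% of lymphatic cells. Hspa1a and Hspa1b, inducible Hsp70 genes that share long stretches of sequence, were higher by 3.47 and 2.85 on the log2 scale, and by 5.25 and 4.11 in blood cells of the same libraries. Of 10 heat shock genes, all were above 0 and 3 past 2-fold, against 2.1% of all genes, with a median of 0.76. The list median was 0.54 in arterial, 0.58 in capillary, 0.19 in lymphatic, 0.33 in Prox1-positive venous and 1.11 in blood cells.

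H19 and Il22 rested on few cells. H19, an imprinted non-coding RNA, had 3 UMIs in control and 124 in Flcn iΔEC cells, a ratio interval of 9.81 to 144, with 46.8% of the latter in 1 of 8 cells that held it. Il22, a cytokine of innate lymphoid and T cells, had 39 UMIs in 3 control cells and 308 in 17 Flcn iΔEC cells. Of these cells, 3 of 3 and 12 of 17 also held Ptprc, against 22 of 56 and 14 of 65 cells without Il22, and without the cells with leukocyte UMIs 0 and 8 Il22 UMIs remained.

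**Figure D2:**
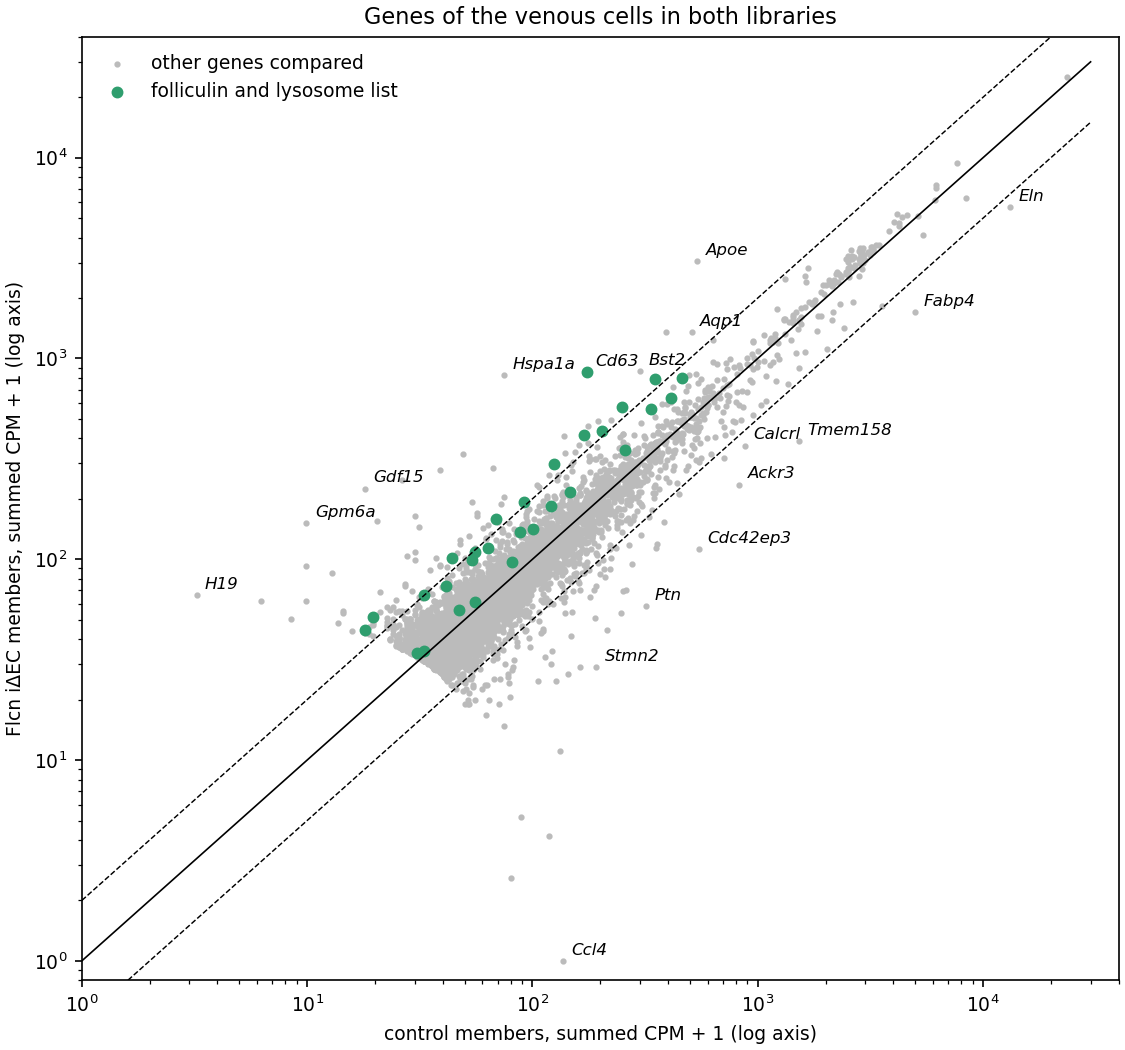
Summed CPM plus 1 of each compared gene in the control (x) and the Flcn iΔEC venous cells (y), both axes logarithmic, with solid and dashed lines at equality and at 2-fold; sex-linked genes are not drawn. Green points, genes of the folliculin and lysosome list, all lie above equality, and Apoe, Hspa1a, Gdf15 and Gpm6a lie far above the upper line.

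Of the 15 lowest ratios, 5 rested on cells with leukocyte UMIs. The chemokine Ccl4 had 182 UMIs in 2 control cells and none in the Flcn iΔEC cells, and 87.9% lay in 1 cell with 7 Ptprc UMIs that also held 78.8% of Ccl3 and 90.4% of Ifitm1. Ifng, the gene of interferon-γ, had 96.3% of its 107 control UMIs in another cell with 6 Ptprc UMIs. Without cells that held leukocyte UMIs, Ccl4 and Ifng had none in either library, Ccl3 and Ifitm1 1 and 0, and the chemokine Cxcl10 1 and 1. These 5 ratios were not read as values of venous endothelium.

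The other 10 were spread over at least 29 of the 59 control cells. Stmn2, a microtubule-destabilising protein, had 191 CPM (interval 169 to 216) and 28.0 CPM, 6.73-fold lower in the Flcn iΔEC cells, with UMIs in 33 of 59 and 18 of 82 cells. The heparin-binding growth factor Ptn had 318 and 57.6 CPM, and the secreted protein Cytl1 143 and 25.9 CPM. Cdc42ep3 (chr17:79333727-79355091), which binds the GTPase Cdc42 and shapes actin, was the most abundant of them, at 545 CPM in control cells with a median of 613 CPM per cell and 111 CPM in Flcn iΔEC cells with a median of 95.8 CPM. No Flcn iΔEC cell lay above the control median. The protease inhibitor Serpinb1a had 105 and 23.8 CPM.

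The fibrillar collagen Col3a1 had 131 and 10.0 CPM, the microfibril protein Mfap5 162 and 28.0 CPM, the smooth muscle actin binder Tagln 127 and 23.8 CPM, Fndc1 214 and 43.3 CPM, and the xylosyltransferase Gxylt2 246 and 52.8 CPM. Col3a1 and Tagln are the genes that carried the fibroblast and mural sums above, and mesenchymal RNA in the cells was not told apart from endothelial expression. Both ratios remained past 2-fold without the cells with leukocyte UMIs, at -3.93 and -2.76. In Flcn iΔEC blood cells both genes were higher than in control blood cells, by 4.33 and 2.42.

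**Figure D3:**
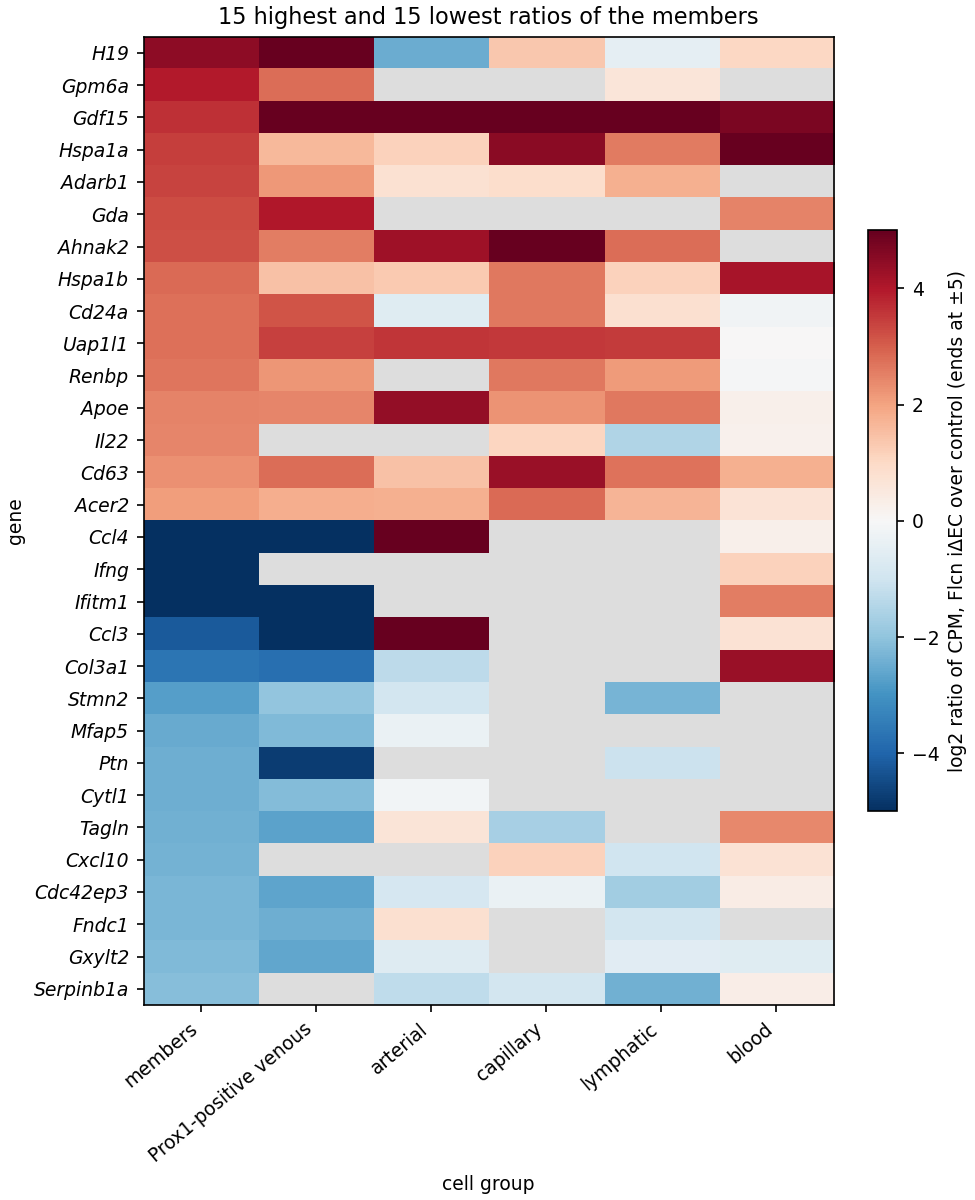
Log2 ratio of CPM, Flcn iΔEC over control, for the 15 highest and 15 lowest genes of the venous cells (rows) in 6 groups of cells from the same libraries (columns), red higher and blue lower, ending at ±5, grey where the group held under 100 UMIs. Of the 15 highest with enough UMIs, 14 of 14 were also at least 2-fold higher in Prox1-positive venous cells and 12 of 13 in capillary cells. The counts were 10 of 14 in lymphatic, 8 of 11 in arterial and 6 of 12 in blood cells, and H19 was lower in arterial cells. Of the 15 lowest, 12 of 12 were also lower in Prox1-positive venous and 5 of 7 in lymphatic cells. In arterial cells 2 of 11 were lower and 2 higher, in capillary cells 1 of 4 and 1, and in blood cells 0 of 10 and 4.

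Lysosomal genes made up the list with the most called genes. Of 41 genes of folliculin partners, the MiT/TFE factors, lysosomal enzymes, membrane proteins, the proton pump and autophagy adaptors, 29 had enough UMIs. All 29 were above 0, 12 were past 2-fold (41.4%, against 2.1% of all genes), none was 2-fold lower, and the median log2 ratio was 0.84. Summed over the list, control cells held 4014 CPM and Flcn iΔEC cells 7817 CPM. Per cell the sum ran from 1573 to 5821 CPM in the control, with a median of 4142 CPM, and from 2858 to 13780 CPM in the Flcn iΔEC library, with a median of 8017 CPM. Of the 82 Flcn iΔEC cells, 72 lay above the highest control cell. Without the cells with leukocyte UMIs the median was 0.93, and the 12 genes had ratios of 1.03 to 2.30, those of Fnip1, Neu1 and Atp6v1b2 on under 100 UMIs.

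Cd63 (chr10:128900989-128912822), a tetraspanin of lysosomes and of the granules that store Vwf, had the largest ratio, with 174 CPM (interval 153 to 198) against 855 CPM (813 to 897). Among the hydrolases, the proteases Ctsb, Ctsd and Ctsl were higher by 1.29, 1.09 and 1.19, Ctsl from 348 to 792 CPM. Tpp1, Hexa and Neu1, which cut peptides, gangliosides and sialic acid, were higher by 1.22, 1.06 and 1.30. The cholesterol carrier Npc2 had 249 and 570 CPM, whereas Npc1, the membrane protein that takes cholesterol from it, had a ratio of 0.07. Lamp2 and the pump subunits Atp6v1a and Atp6v1b2 were higher by 1.25, 1.21 and 1.01, the last under 2-fold in 5 of 16 alternatives. Of the folliculin complex, Fnip1 had 25 and 96 UMIs (1.41), and Fnip2 19 and 67, under the minimum. The Rag GTPase gene Rragc had a ratio of 0.88, Rragd 0 and 23 UMIs. Tfe3 itself was at 29.8 and 33.3 CPM, with a ratio of 0.15, and Tfeb at 26.8 and 18.5 CPM.

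The same list had median ratios of 0.62 in arterial, 0.97 in capillary, 0.84 in lymphatic and 1.12 in Prox1-positive venous cells of these libraries, and 0.08 in blood cells. These groups share the libraries, so they are no replicates, and differences between them were not tested.

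**Figure D4:**
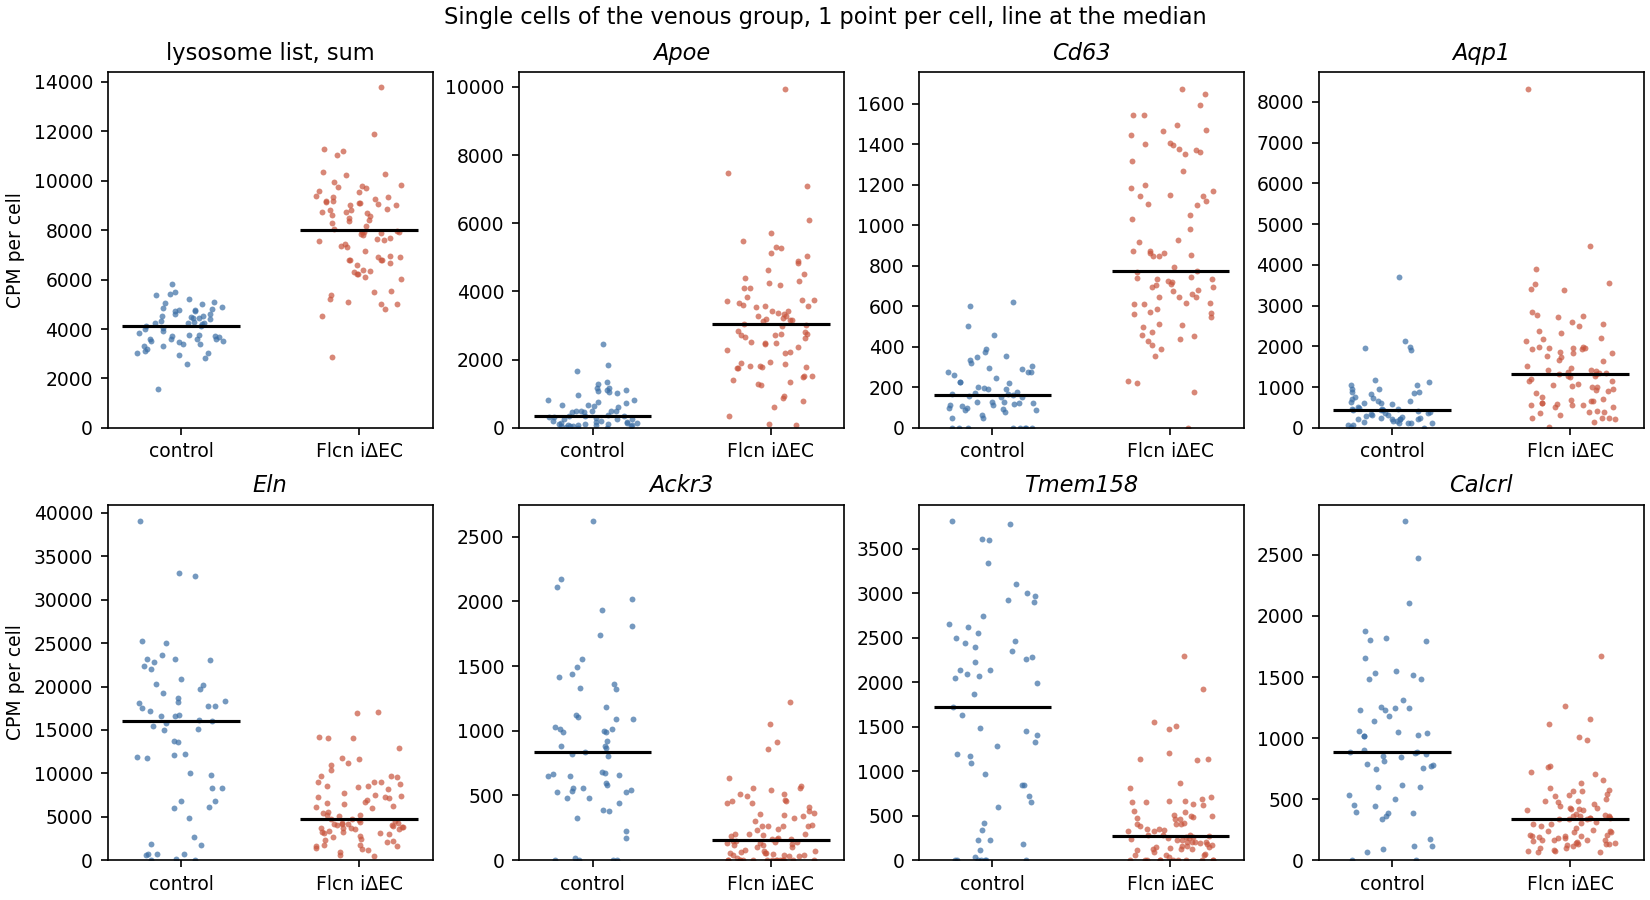
CPM per cell, 1 point for each of the 59 control and 82 Flcn iΔEC venous cells, with a line at the median, for the lysosome list sum and 7 genes on linear axes. The lysosome sum has medians of 4142 and 8017 CPM, and Eln, Ackr3, Tmem158 and Calcrl are lower in most Flcn iΔEC cells.

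**Figure D5:**
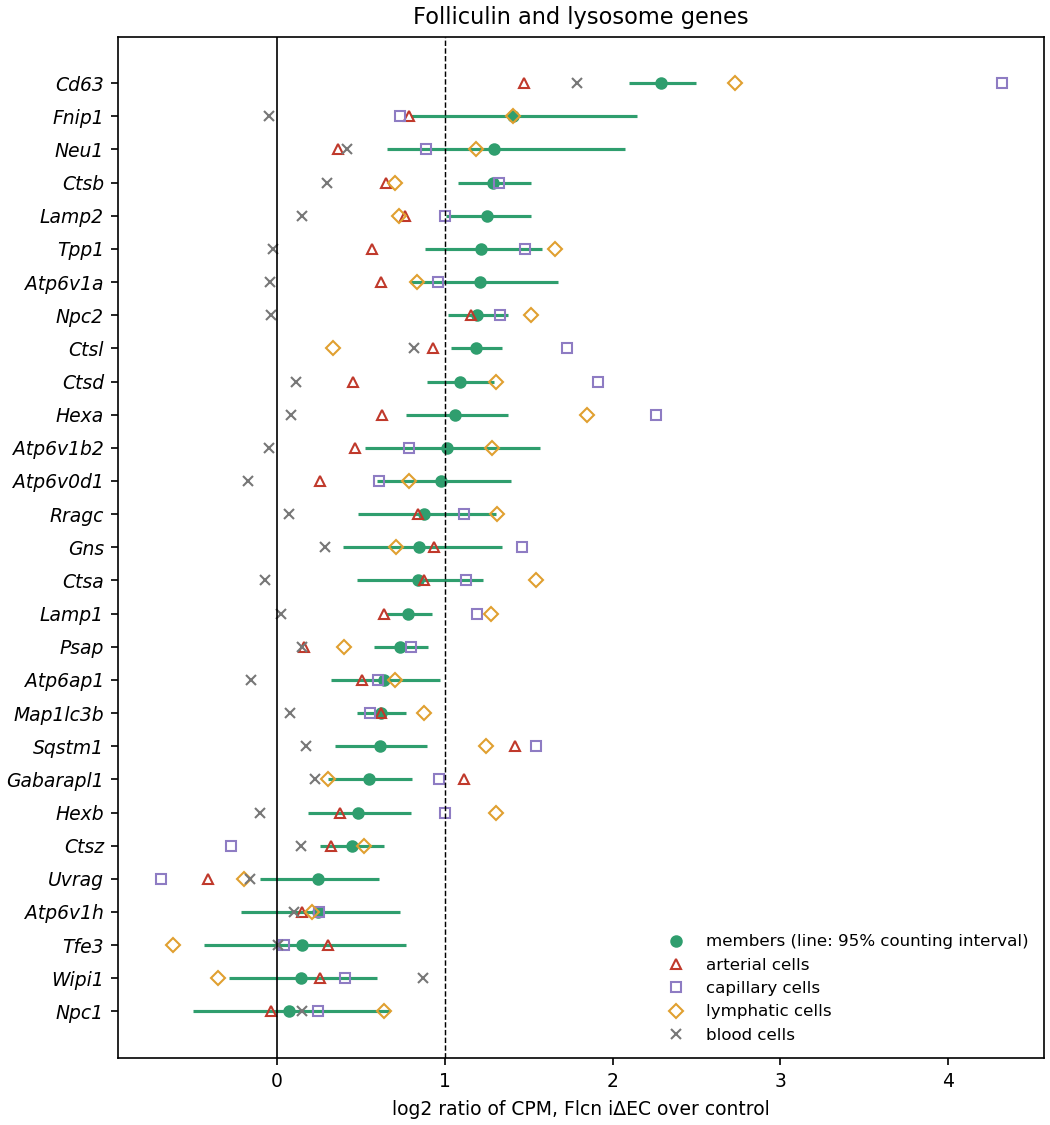
Log2 ratio of CPM, Flcn iΔEC over control, for the 29 compared genes of the list, with the counting interval of the venous cells as a line and the ratios in arterial, capillary, lymphatic and blood cells as open symbols and crosses. The dashed line marks 2-fold, and Cd63 is highest in the venous cells at 2.29, while most blood cell values stand near 0.

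Factors of the MiT/TFE family bind the E-box CACGTG, and the longer TCACGTGA is the core of the lysosomal CLEAR element. Promoter windows of 250 bases before to 50 bases after the start site, from RefSeq on GRCm38.p6, were searched for these letters, each of which reads the same on both strands, and every TCACGTGA also counts as a CACGTG. Of all 32851 windows, 7.15% held CACGTG and 0.974% TCACGTGA. The shares that follow count genes, each as a match if any of its windows held the motif, so they are not set against the share of windows. Among genes compared between the genotypes, 12.5% of 3861 with a window held CACGTG, against 14 of 81 (17.3%) at least 2-fold higher and 3 of 79 (3.80%) at least 2-fold lower. In the lysosome list it was 8 of 23 (34.8%), and 4 of the 10 past 2-fold that have a window. A match describes letters and not a bound site. The windows of these 4 genes, Fnip1, Ctsd, Ctsl and Atp6v1a, are shown on the strand of the gene with CACGTG in capitals, because they belong to the list with the most called genes. They are Fnip1 at chr11:54437929-54438228 (plus strand), Ctsd at chr7:142387778-142388077 (minus), Ctsl at chr13:64370471-64370770 (minus) and Atp6v1a at chr16:44139210-44139509 (minus).

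Fnip1: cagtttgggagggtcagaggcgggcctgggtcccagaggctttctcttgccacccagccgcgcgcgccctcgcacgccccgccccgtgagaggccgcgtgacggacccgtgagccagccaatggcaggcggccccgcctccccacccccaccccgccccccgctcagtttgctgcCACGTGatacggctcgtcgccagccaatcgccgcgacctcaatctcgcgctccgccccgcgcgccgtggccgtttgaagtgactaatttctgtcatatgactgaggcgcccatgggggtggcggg
Ctsd: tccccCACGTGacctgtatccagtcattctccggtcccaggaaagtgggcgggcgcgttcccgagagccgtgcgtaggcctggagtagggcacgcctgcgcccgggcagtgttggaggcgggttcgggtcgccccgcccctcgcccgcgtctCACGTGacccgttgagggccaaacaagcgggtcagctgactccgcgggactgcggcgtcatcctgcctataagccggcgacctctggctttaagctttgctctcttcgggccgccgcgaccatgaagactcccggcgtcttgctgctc
Ctsl: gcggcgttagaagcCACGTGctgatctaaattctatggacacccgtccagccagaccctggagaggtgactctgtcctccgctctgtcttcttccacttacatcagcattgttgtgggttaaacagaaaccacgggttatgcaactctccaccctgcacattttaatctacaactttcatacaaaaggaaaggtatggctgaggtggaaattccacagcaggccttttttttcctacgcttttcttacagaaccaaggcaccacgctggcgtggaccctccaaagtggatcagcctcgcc
Atp6v1a: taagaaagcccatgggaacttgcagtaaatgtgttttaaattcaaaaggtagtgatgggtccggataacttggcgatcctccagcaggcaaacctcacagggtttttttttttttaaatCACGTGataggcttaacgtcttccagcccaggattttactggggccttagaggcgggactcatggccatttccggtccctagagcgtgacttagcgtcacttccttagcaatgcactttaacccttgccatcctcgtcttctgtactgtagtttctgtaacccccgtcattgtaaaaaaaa

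The Ctsd window holds the motif at -245 and -98 from the start site, and that of Atp6v1a at -131, in both genes as TCACGTGA at least once. In Fnip1 it lies at -75 and in Ctsl at -236, not as the longer form.

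Counts of called genes in the lists that follow stand against 2.1% of all genes on the higher and 2.18% on the lower side. Of 27 genes of veins and venules 22 were compared, 3 were past 2-fold on the higher side (13.6%) and 1 on the lower, and the median was -0.20. Aqp1 (chr6:55336432-55348555), a water channel of venules and capillaries, had 508 CPM (interval 471 to 548) and 1352 CPM (1301 to 1406). Its cell medians were 449 and 1335 CPM, and 71 of 82 Flcn iΔEC cells lay above the control median. P-selectin, Selp, which captures rolling leukocytes and shares granules with Vwf, had 45.4 and 107 CPM, and Tmem252 55.8 and 164 CPM. The ratio of Selp was under 2-fold without the cells with leukocyte UMIs, at 0.96. Adgrg6, an adhesion G protein-coupled receptor, had 159 and 76.6 CPM, and its ratio of -1.05 ranged from -1.35 to -0.90 over the alternatives. Nr2f2 (-0.44), Ephb4 (0.08), Nrp2 (-0.38), Procr (-0.01) and Plvap (0.04) lay within 2-fold.

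Of 12 compared genes of clotting and fibrinolysis, 2 were higher (16.7%, against 2.1% of all genes) and none lower, with a median of -0.08. Plat, tissue plasminogen activator, had 20.1 and 67.6 CPM, and Plaur, the urokinase receptor, 21.6 and 56.5 CPM. Thbd, thrombomodulin, had a ratio of -0.60 and F8, clotting factor VIII, 22 and 10 UMIs. Of 13 adhesion genes, Selp was higher and Madcam1, the gut addressin for lymphocytes, lower, at 120 and 29.1 CPM. Madcam1 was uneven, since 50.9% of its control UMIs and 69.1% of its Flcn iΔEC UMIs lay in 1 cell each. Its ratio was -0.64 when gene limits other than those of Cdh5 and Aplnr were set per 10000 UMIs. Icam1, Icam2 and Pecam1 lay within 2-fold.

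Ackr3 (chr1:90203980-90216751), an atypical receptor that removes Cxcl12 and adrenomedullin, had 827 CPM (interval 779 to 877) against 234 CPM (213 to 257), and 54 of 59 control cells lay above the Flcn iΔEC median. Calcrl, the receptor for calcitonin gene-related peptide and adrenomedullin, had 880 and 367 CPM, while its partner Ramp2 had a ratio of -0.32. The nitric oxide synthase Nos3 had 161 and 69.2 CPM and Gucy1a3, a subunit of the nitric oxide receptor, 91.5 and 42.8 CPM. Of 10 vasoactive genes Calcrl, Nos3 and Gucy1a3 were lower, against 2.18% of all genes, and none was higher. The ratio of Gucy1a3 was -0.38 with no Prox1 UMI allowed and under 2-fold in 3 of 16 alternatives. Caveolin-1, Cav1, was lower by 1.16 on the log2 scale (709 to 318 CPM), and Cav2, Ptrf, Sdpr and Prkcdbp of the caveolar coat lay between -0.62 and -0.86. In that list of 11 compared genes of caveolae and junctions, Aqp1 was the one higher and Cav1 the one lower.

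A few arterial and capillary genes were lower. Of 10 compared arterial genes Stmn2 and the Notch ligand Jag1 (106 and 48.1 CPM) were lower and none higher. Of 4 compared capillary genes the fatty acid transporter Cd36 (337 and 129 UMIs) and the fatty acid binding protein Fabp4 (4992 and 1699 CPM) were lower, and the median was -1.23. For Fabp4, 54 of 59 control cells lay above the Flcn iΔEC median. Without the cells with leukocyte UMIs fewer capillary genes had 100 UMIs, and their median was -2.03, the ratio of Fabp4 itself. Of 8 Notch genes, Dll1 and Jag1 were lower, with a median of -0.48, and of 32 endothelial transcription factors Lyl1 and Meox2 were lower, with a median of -0.29. Meox2 was at -0.78 with no Prox1 UMI allowed. Lymphatic genes numbered 4 with enough UMIs, none past 2-fold, and Flt4, the receptor of VEGF-C, had 13 and 53 UMIs.

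In the matrix list 23 genes were compared, with Thbs1 higher and Col4a1, Eln and Lox lower. Eln (chr5:134702593-134747323) was the gene with the most UMIs among them. Control cells ranged from 23.4 to 39018 CPM with a median of 16004 CPM, and Flcn iΔEC cells from 433 to 17011 CPM with a median of 4719 CPM. Lox, which cross-links elastin and collagen, had 147 and 40.7 CPM, and Fbln2 and Fbln5, which bind elastic fibres, had ratios of -0.96 and -0.08. Thbs1, a matricellular inhibitor of angiogenesis, had 139 and 339 CPM but 0.78 on the log2 scale without the cells with leukocyte UMIs. Imprinted growth genes gave H19 on the higher side and Mest and Peg3, both expressed from the paternal allele, on the lower, at 381 and 152 CPM for Mest.

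Of 6 interferon-stimulated genes with enough UMIs, Isg15, Bst2 and Xaf1 were higher, against 2.1% of all genes, and the median was 0.97. That median ranged from 0.17 to 1.10 over the alternatives. Isg15 was at 0.71 with no Prox1 UMI allowed and at 0.86 in the cells at or below the median of Eln. Xaf1 was at 0.86 without the cells with leukocyte UMIs. Bst2, or tetherin, which holds budding virus at the membrane, had 299 and 866 CPM, with medians of 278 and 794 CPM per cell. The list median was 0.36 in arterial, 0.54 in capillary, 0.53 in lymphatic, 0.58 in Prox1-positive venous and 0.55 in blood cells. Of 4 compared genes of high endothelial venules, Apoe was higher and Madcam1 and Gcnt1 lower, and of 3 compared chemokine and cytokine genes Ackr3 and Cxcl10 were lower, the latter with 1 and 1 UMI without the cells with leukocyte UMIs. None was past 2-fold among 10 pan-endothelial, 12 valve, 9 apelin, Tie and VEGF, 4 Eph and ephrin and 10 glycolysis genes, with medians from -0.30 to 0.03. The 12 immediate early genes were all below 0, with none past 2-fold, at a median of -0.52, and 7 antigen presentation genes had a median of -0.55. Both medians moved with the leukocyte UMIs, to 0.04 and 0.14 without those cells, each over the list genes that still had 100 UMIs. Cd74 and H2-Aa, the class II genes followed singly, did not move with the median. They were at -0.99 and -1.38 without those cells, on 94 and 97 UMIs of Cd74 and 61 and 48 of H2-Aa. Over all venous cells Cd74 had 1204 and 768 CPM and H2-Aa 553 and 378 CPM.

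Within each library, the venous cells differed most from each other in Malat1, Mgp, Cd74, Eln, Junb, Fos, H2-Aa, Fbln2, Gm42418, Actb, H2-Eb1, Fabp4, Jun, H2-Ab1 and Sparc, ranked by the smaller Fano factor (variance over mean of UMIs scaled to 5000 per cell) of the libraries among 1491 genes. Among them are matrix genes, MHC class II genes and immediate early genes. Mgp had UMIs in 53 of 59 and 82 of 82 cells, up to 90.7 and 132 UMIs on that scale. Cd74 had UMIs in 34 and 41 cells, with medians of 0.207 and 0.0791 and highest cells of 80.9 and 34.6.

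The gene pairs that follow were chosen after their values were seen, and their rank correlations describe 59 control and 82 Flcn iΔEC cells, which share a library each. Of 3374 genes with at least 1 UMI per cell on average, the 12 that went most closely with Eln in both libraries were Fbln2, Fbln5, Ackr3, Itgb1, Fstl1, Ctsh, Tmem158, Bgn, Calcrl, Cald1, Cbfa2t3 and Procr. Fbln2 had rho of 0.79 and 0.73, Fbln5 0.80 and 0.68, and Ackr3 0.69 and 0.65. In the cells above the median of Eln, Tmem158 stood at 2357 and 550 CPM, and in the cells at or below it at 954 and 226 CPM. Procr behaved likewise, at 1146 and 967 against 479 and 527 CPM. Among those on the opposite side were Rgs2, Pim1, Ets1, Zfp36l1, S100a4, Il18r1 and Fos, with rho between -0.35 and -0.53. Most of these went with depth, as Fos had rho of 0.67 and 0.50 with total UMIs and Il18r1 0.69 and 0.49, and Cd74 went with Ptprc at 0.56 and 0.69. Eln itself stood at 8562 and 4052 CPM in the cells with 2 or more Ptprc UMIs. In the cells without one it had 17624 and 6508 CPM. The correlations were not computed without the cells with leukocyte UMIs, and the part of leukocyte RNA in them was not tested.

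Ackr3, Tmem158 and Calcrl, which went with Eln within each library, were also lower in the Flcn iΔEC cells. Each library was split at its own median of Eln, 16004 CPM in the control and 4719 CPM in the Flcn iΔEC cells. The sides were therefore not matched in Eln, and only 2 Flcn iΔEC cells lay above the control median. Ratios of Ackr3 and Calcrl were past 2-fold on both sides, and whether they were lower apart from Eln was not tested. Among the 29 and 41 cells above it Ackr3 had a ratio of -1.74, Calcrl -1.44 and Eln -1.31, and among the 30 and 41 cells at or below it -2.34, -1.19 and -1.41. The ratios of Cd63 were 2.06 and 2.46 and those of Apoe 2.32 and 2.63. The basement membrane gene Col4a1 differed, with 0.21 above and -1.60 at or below the median.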

How the data were processed

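Per the labels and the methods, the libraries were made from CD31+ cells with a droplet 3′ kit, and the authors counted UMIs with Cell Ranger 3.0 on mm10. The deposited values are raw UMI counts per gene and barcode, without normalization, for 28692 gene models. Here rows of 1 symbol were summed (28625 symbols), of which 28383 identifiers matched the GENCODE annotation on GRCm38 used for positions.

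The venous cells were selected on raw UMIs, and arterial (at least 3 UMIs of Gja5 and Sema3g), capillary (at least 5 of the capillary genes), lymphatic (at least 3 of Prox1, at least 5 of Lyve1, Mmrn1, Pdpn and Ccl21a, and no Aplnr) and blood cells (at least 2 of Ptprc, no Cdh5) likewise. The cells and the gene lists were chosen with earlier results of these data known. Named genes were the list genes past 2-fold, the 15 largest and 15 smallest ratios (at least 100 UMIs and 50 CPM, without sex-linked, mitochondrial, ribosomal, hemoglobin, immunoglobulin, receptor and Gm or Rik genes), the 10 leading genes against each other cell group (1 gene is not reported here), and the 15 most variable genes. Genes were compared as summed CPM with 1 UMI added, at a minimum of 100 UMIs between genotypes and 50 within a library. Intervals are exact Poisson, exact conditional and Clopper-Pearson intervals. No test between genotypes was made, since each had 1 library. Shares of cells with a UMI were also computed for cells thinned to 2000 UMIs. Doublets were sought with Scrublet in scanpy 1.11.5, whose automatic cut marked 2.08% and 0.112% of barcodes; a score of 0.25, chosen after seeing the data, was also used. Python 3.11.15, numpy 2.4.6, scipy 1.17.1, pandas 2.3.3 and matplotlib 3.10.9 were used, and the comparison was tested on simulated counts. Alternatives were other limits on cells, other scalings, equal weights per cell, other count minimums and 5 UMIs added. Leaving out the highest cell of each gene and splitting the cells by Eln were chosen after seeing the data.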

Additional observations from a re-analysis of the deposited data

Results flagged for a closer look

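There were 6 ratios of Flcn iΔEC over control with the opposite sign in another group of endothelial cells, with at least a 2-fold difference on each side. With 1 library per genotype, none of these differences was tested. H19 was at 4.47 on the log2 scale in venous and -2.47 in arterial cells. Aqp1 was at 1.41 in venous and -1.66 in arterial cells, 508 to 1352 CPM against 82.6 to 26.0 CPM. Il22 was at 2.46 in venous and -1.49 in lymphatic cells. Ccl4 and Ccl3 were at -8.01 and -4.22 in venous and 5.33 and 5.69 in arterial cells, and Cxcl10 at -2.38 in venous and 1.15 in capillary cells. The venous values of Il22, Ccl4, Ccl3 and Cxcl10 moved with cells that held Ptprc, as described above, and the part of leukocyte RNA in the other groups was not tested.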

How the results depend on the processing

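Cells with a Ptprc UMI, or with 2 or more Pf4 and Ppbp UMIs, were left out of every group of endothelial cells. Among the venous cells these were 25 control and 26 Flcn iΔEC cells, none of them added by Pf4 and Ppbp. The genes higher in venous cells then numbered 130 against arterial, 261 against lymphatic and 66 against Prox1-positive venous cells. The share of venous cells among endothelial cells was 8.01% and 6.75% with no Prox1 UMI allowed. In the control it was 14.0% with up to 3 and 14.2% with limits per 10000 UMIs, those of Cdh5 and Aplnr staying on raw UMIs. Under these last limits 168 genes were at least 2-fold lower in the Flcn iΔEC cells. A minimum of 50 UMIs gave 180 genes higher and 209 lower, and a minimum of 1 gave 928 and 2130. The number of genes compared also changes with the cells and the minimum and is not given, so these counts are not shares. Thinned to 5000 UMIs, 49.8% of Flcn iΔEC cells held Gpm6a. Of 75 named genes past 2-fold, Col4a1 alone changed sign, to 0.21 above the median of Eln, and 54 stayed past 2-fold under every alternative that left at least 10 UMIs. The lysosome list median lay between 0.80 and 0.94 under every alternative, and that of the venous list between -0.41 and 0.06. No paired analysis was possible because each genotype had 1 library. Genes under 100 UMIs, Flcn and Prox1 among them, and single-cell zeros are limited by depth, and mouse, sex, batch and genotype cannot be told apart.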
